A study of Mus musculus with 7 samples.

Results

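The genes described here are 8 members of the intermediate filament family, taken by symbol from a table of transcript abundance in mouse dorsal root ganglia: Nefl, Nefm, Nefh, Ina, Nes, Prph, Vim and Gfap. Each symbol occurred once among the 54309 genes of the table, and all 8 belonged to the 14800 genes tested, whose level averaged 1 TPM or more (TPM is a transcript level divided by length and scaled to a fixed sum in each sample). The samples were lumbar ganglia of male C57bl/6 mice aged 6 to 8 weeks, collected 72 h after a sciatic nerve injury, dissociated with enzymes and enriched for neurons on an albumin gradient. In the ZT20 group (4 samples) injury and collection fell at Zeitgeber time 20, and in the ZT8 group (3 samples) at Zeitgeber time 8, in hours from lights on. All 7 samples were injured, so no uninjured level was measured, and the time of injury and the time of collection cannot be told apart. The labels do not say whether the samples came from separate or pooled animals, so p-values measure the spread between these samples.

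Intermediate filaments are rope-like polymers that give cells tensile strength. In large myelinated axons the neurofilament light, medium and heavy chains (Nefl, Nefm and Nefh) co-assemble with alpha-internexin (Ina) or peripherin (Prph) and set axon calibre, and the long phosphorylated tails of the medium and heavy chains space the filaments apart. Peripherin is the characteristic filament of small sensory neurons, while vimentin (Vim) and glial fibrillary acidic protein (Gfap) are typical of glia and connective tissue cells, and nestin (Nes) of progenitor cells. After a peripheral nerve is cut, sensory neurons are known to lower their neurofilament transcripts while growth-related genes rise.

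The heavy chain is the member on which the results turn, and its coding sequence differs from that of the other chains in a repeated codon triplet. The motifs AAGTCNCCN and AAATCNCCN, codons for lysine, serine and proline, were counted in frame on the coding strand of the GENCODE M21 transcripts (mouse build GRCm38). Nefh held 49 in a coding sequence of 3270 bases, Nefm 4 in 2544 bases, Nes 4 in 5592 bases, and Nefl, Ina, Prph, Vim and Gfap 0. The window of 150 bases richest in these motifs is shown for Nefh (bases 1549 to 1698 of its coding sequence, 8 motifs) and Nefm (bases 1372 to 1521, 2 motifs) to show how far the tails differ, with the motifs in capitals.
Nefh: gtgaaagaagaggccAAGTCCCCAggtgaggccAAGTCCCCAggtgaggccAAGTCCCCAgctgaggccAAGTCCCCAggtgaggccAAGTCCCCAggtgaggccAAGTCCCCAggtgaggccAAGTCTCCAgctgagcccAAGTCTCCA
Nefm: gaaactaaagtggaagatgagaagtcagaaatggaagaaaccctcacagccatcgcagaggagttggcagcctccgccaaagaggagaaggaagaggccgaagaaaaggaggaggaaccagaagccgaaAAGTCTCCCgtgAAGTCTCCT
Of 681707 windows of this length cut end to end from the longest transcript of each gene, 1.67% held either motif in any frame, and 4 windows held at least 8. Nefh was among these genes, and its window above was picked as the richest in frame, so the counts were not made alike.

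A few facts of the whole series bear on these genes. Transcripts of 4 Y-linked genes (Uty, Kdm5d, Ddx3y, Eif2s3y) lay between 0 and 0.016 TPM in ZT20 replicates 3 and 4, against the male label, so results are also given without those libraries. ZT8 replicate 2 had the fewest genes above 0 TPM, 18297 against 22541 to 25238 in the others. Markers of neurons (12 genes) summed to 18234 to 20292 TPM at ZT20 and 14574 to 18406 TPM at ZT8, and satellite glia markers (10 genes) to 7697 to 9175 TPM and 12356 to 15028 TPM, so both kinds of RNA were present in all samples. The glial sums were apart between the groups through Apoe, since the other 9 markers summed to overlapping ranges of 1283 to 1560 TPM and 1471 to 1733 TPM, and 5 of the 10 markers had a positive log2 difference and 5 a negative one, with a median of −0.064 against 0.23 over all tested genes. In the sample descriptions library names start with a digit at ZT20 and with a letter at ZT8, and any batch they stand for cannot be told apart from the group.

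The filament transcripts spanned more than 3 orders of magnitude and kept nearly the same order in every sample. In all 7 samples the levels ran from Nefl through Prph, Nefm, Nefh and Vim to Ina, and Ina lay above Gfap and Nes. Nefl ranked between rank 3 and rank 30 of all genes, and Prph between rank 22 and rank 36. Gfap was above Nes in 5 samples and below it in 2, so the order of those genes was not fixed. Together the 8 genes held 0.916% to 1.28% of the summed TPM of a ZT20 sample and 0.673% to 1.13% of a ZT8 sample.

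**Figure D1:**
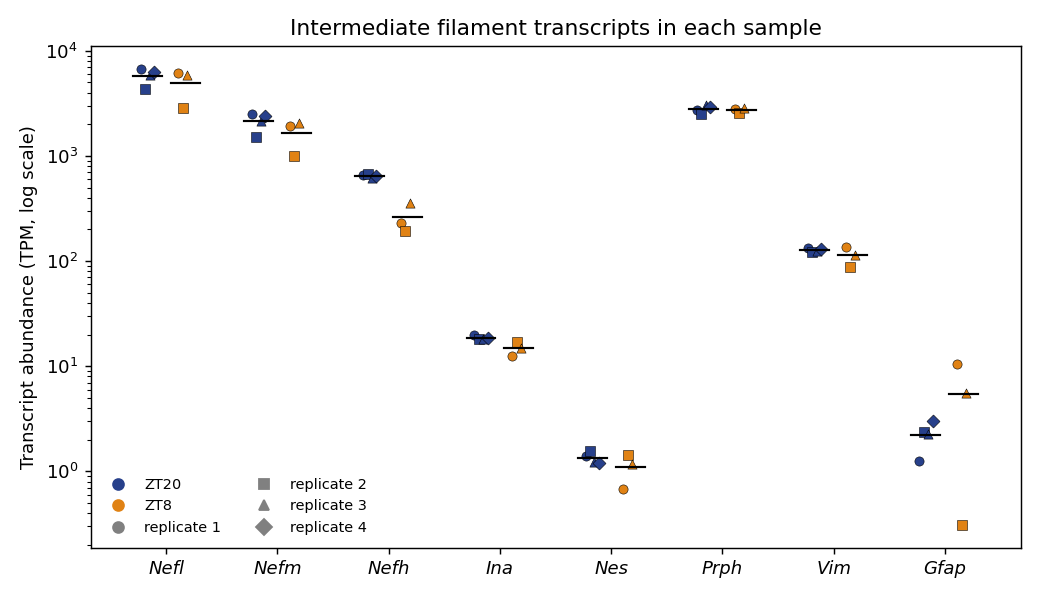
Abundance of the 8 filament genes (TPM, log axis) in the 4 ZT20 samples (blue) and 3 ZT8 samples (orange), with symbols for the replicate number and black bars for group means. The groups separate clearly for Nefh, where all ZT20 samples lie between 620 and 672 TPM and the ZT8 samples between 194 and 360 TPM.

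Of the 8 genes, 1 (Nefh) differed between the groups at an adjusted p-value under 0.05 by limma with Benjamini-Hochberg adjustment over all tested genes. The other 7 did not pass. The share called among all 14800 genes was 16.4%, so 1 of 8 is near the background and the count says nothing particular of the family. The median log2 difference (ZT20 minus ZT8, on the log2(TPM + 1) scale) was 0.24 over the members and 0.23 over all tested genes. Group ranges were apart in 2 of the 8, Nefh and Ina, against 33.2% of all tested genes.

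Nefh (ENSMUSG00000020396), the heavy chain with the repeat-rich tail shown above, was higher at ZT20. It stood at 653, 672, 620 and 650 TPM in ZT20 replicates 1 to 4. At ZT8 it was at 230, 194 and 360 TPM in replicates 1 to 3. Every ZT20 sample lay above every ZT8 sample, and the lowest ZT20 value was 1.72 times the highest ZT8 value. The spread was narrow at ZT20, with a coefficient of variation of 3.34%, and wide at ZT8, with 33.5%. The ZT20 mean of 649 ± 21.7 TPM (SD, n = 4) compared with 261 ± 87.5 TPM (SD, n = 3) at ZT8, a 2.48-fold difference. On the log2 scale the difference was 1.36 with a standard error of 0.19 and a 95% interval of 0.92 to 1.80 (limma adjusted p = 0.00569). In bulk samples such as these, fewer cells of a type and less RNA per cell cannot be told apart.

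The cell makeup score was higher at ZT20, as Nefh was, but within each group the score and Nefh did not keep the same order. The score did not overlap between the groups, so a fit with it cannot tell makeup from group. Other settings changed the size or call of the Nefh difference. The mean log2 score of neuronal minus non-neuronal markers was 4.69 to 4.94 at ZT20 and 4.11 to 4.67 at ZT8, and with that score as a covariate the Nefh difference was 0.81 (limma adjusted p = 0.249), while 0 genes passed over the whole table and 2125 had an unadjusted p-value under 0.05. After each sample was corrected for transcript length and GC content the Nefh difference was 0.89 and passed (limma adjusted p = 0.0278), but with the replicate number added as a block to that correction it was 0.91 and did not (limma adjusted p = 0.0618). That transcript has 3994 bases, against 3380 for the longest Nefl transcript, 3680 for Nefm and a median of 3108 over the tested genes. Without ZT20 replicates 3 and 4 the Nefh difference was 1.39 but did not pass (limma adjusted p = 0.137), and the fit over those 5 samples called 0 genes in all, with 2425 at an unadjusted p-value under 0.05. Leaving out each library in turn gave differences from 1.17 to 1.62, and all 7 such fits called Nefh.

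**Figure D2:**
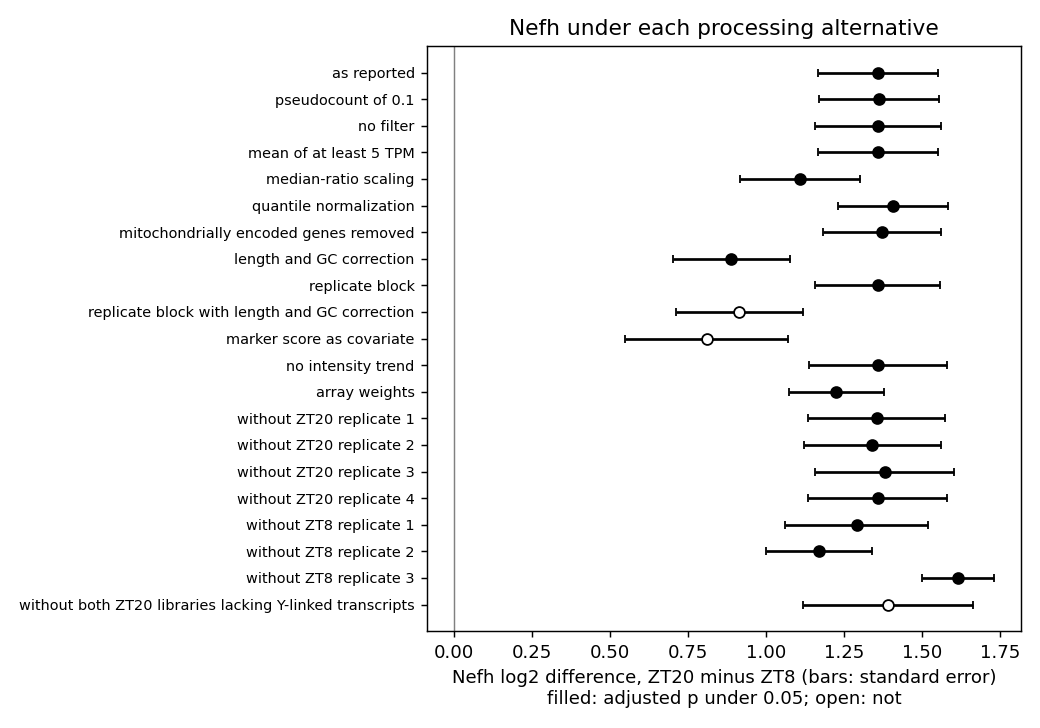
Log2 difference of Nefh (ZT20 minus ZT8) as reported and under each alternative, with standard errors as bars and filled points where the adjusted p-value was under 0.05. The difference was positive throughout, from 0.81 to 1.62, and 3 of the 20 alternatives did not pass.

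Nefh is used as a marker of large-diameter sensory neurons, so markers of neuron types were read beside it. Of 12 other large-diameter markers, 2 rose at ZT20 and 0 fell, against 12.8% and 3.61% of all tested genes, so the count is near the background. Their median log2 difference was 0.21, against 0.23 for all tested genes. The 2 were Ntrk3, the neurotrophin-3 receptor of proprioceptors, with a ZT20 mean of 51.3 ± 10.3 TPM (SD, n = 4) against 29.6 ± 4.05 TPM (SD, n = 3) at ZT8, and Esrrg, a nuclear receptor, with 9.38 ± 2.72 TPM (SD, n = 4) against 1.96 ± 0.523 TPM (SD, n = 3). Pvalb, the calcium-binding protein that marks proprioceptors, was at 144 to 222 TPM at ZT20 and 201 to 314 TPM at ZT8 and did not pass (limma adjusted p = 0.0750). After the length and GC correction 1 of the 12 rose and 2 fell. Leaving out ZT20 replicate 1, 3 or 4 left 1 higher marker, and leaving out ZT8 replicate 2 gave 2 higher and 1 lower. The summed level of the 12 markers was 882 to 1170 TPM at ZT20 and 714 to 1644 TPM at ZT8 and overlapped. Of 13 nociceptor markers 6 rose and 0 fell, but 0 passed after the length and GC correction, and leaving out each library gave 2 to 6 (2 without ZT20 replicate 3, 3 without ZT20 replicate 4). Of the 12 general neuronal markers 4 rose and 1 fell, and after that correction 2 rose and 1 fell, with the median log2 difference at 0.19 in place of 0.51. None of these markers was at 0 in all samples, and without ZT20 replicates 3 and 4 the fit called 0 in each of the lists. The part of cell makeup in the Nefh difference was not tested, since the covariate fit cannot tell makeup from group.

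Nefl (ENSMUSG00000022055), the light chain that nucleates the filament, did not pass. It stood at 6747, 4309, 5945 and 6234 TPM in ZT20 replicates 1 to 4 and at 6194, 2886 and 5828 TPM in ZT8 replicates 1 to 3. Replicate 2 was the lowest sample of each group, and the ranges overlapped. Its log2 difference was 0.28 with a 95% interval of −0.34 to 0.91 (limma adjusted p = 0.488). Without ZT8 replicate 2 its sign turned, to −0.069.

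Nefm (ENSMUSG00000022054), the medium chain, followed Nefl from sample to sample. It stood at 2495, 1518, 2164 and 2391 TPM in ZT20 replicates 1 to 4 and at 1932, 993 and 2049 TPM in ZT8 replicates 1 to 3. Replicate 2 was again the lowest of each group. For this chain the log2 difference was 0.41 with a 95% interval of −0.21 to 1.04 (limma adjusted p = 0.310), and it was 0.00055 after the length and GC correction. It ran from 0.081 (without ZT8 replicate 2) to 0.60 (without ZT8 replicate 3) as each library was left out. In GENCODE M21 Nefl and Nefm lie on opposite strands and share 1108 bases of annotated exon, so reads from the shared bases could be counted for either if the counting did not use strand.

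Ratios within a sample do not depend on scaling between samples, and they show how the chains moved relative to each other. The ratio of Nefl to Nefm stayed between 2.61 and 3.21 over the 7 samples, although Nefl itself varied 2.34-fold. The ratio of Nefl to Nefh took the values 10.3, 6.41, 9.59 and 9.59 in the ZT20 samples and 27.0, 14.9 and 16.2 in the ZT8 samples, in replicate order. The heavy chain therefore made up 6.60% to 10.3% of the summed light, medium and heavy chain TPM at ZT20 and 2.75% to 4.76% at ZT8. These ranges did not overlap.

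On the log2 scale the ratio of Nefh to Nefl averaged −3.14 ± 0.313 at ZT20 (SD, n = 4) against −4.22 ± 0.465 at ZT8 (SD, n = 3). The difference of 1.08 had p = 0.0286 in the exact permutation test (two-sided), the smallest value that 35 arrangements can give. Over the 5 ratios to Nefl that were compared, the Benjamini-Hochberg adjusted exact p was 0.143. A single ratio at the smallest p-value cannot pass that adjustment with 7 samples, so the adjusted value says nothing either way. After the length and GC correction the difference was 0.85 with the same exact p of 0.0286. The ratio of Nefm to Nefl differed by 0.13 (exact p = 0.0571, adjusted 0.143), and by −0.040 after the correction. The ratios of Prph, Ina and Vim to Nefl differed by −0.26, 0.042 and −0.097, with exact p-values of 0.486, 0.914 and 0.514 and adjusted values of 0.643 to 0.914.

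**Figure D3:**
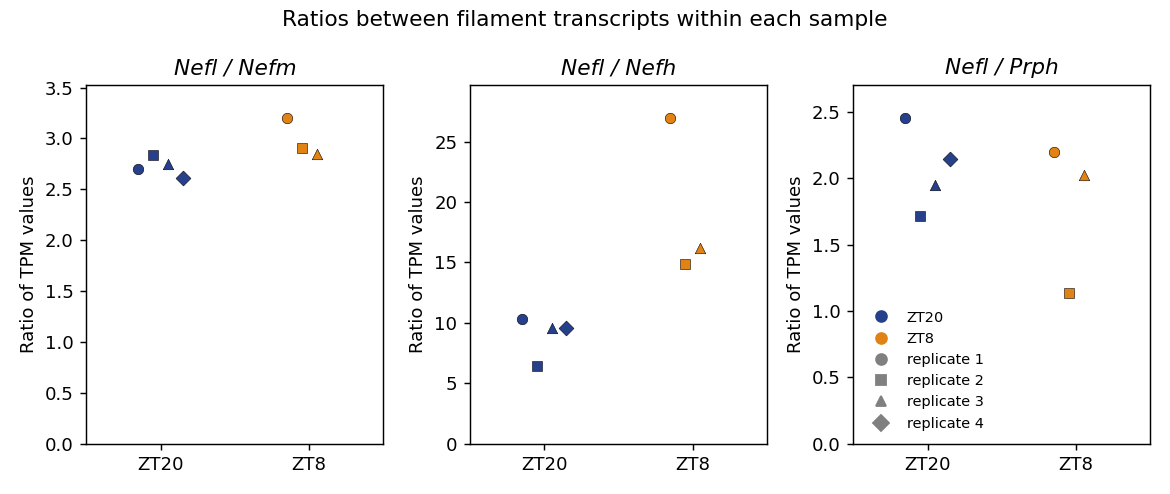
Ratio of Nefl to Nefm, to Nefh and to Prph (ratio of TPM values, linear axes from 0) in each ZT20 and ZT8 sample, with symbols for the replicate number. The Nefl to Nefh ratio is at most 10.3 at ZT20 and at least 14.9 at ZT8, while the Nefl to Nefm ratio stays between 2.61 and 3.21.

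Peripherin was the steadiest of the abundant members. Prph (ENSMUSG00000023484) stood at 2746, 2516, 3049 and 2905 TPM in ZT20 replicates 1 to 4 and at 2823, 2547 and 2877 TPM in ZT8 replicates 1 to 3. The highest value was 1.21 times the lowest over all 7 samples, and the groups overlapped. Its log2 difference was 0.027 with a 95% interval of −0.22 to 0.28 (limma adjusted p = 0.880). Median-ratio scaling, which moved the median of all genes from 0.23 to 0.014, turned that sign, to −0.22. ZT8 replicate 2, lowest in Nefl, Nefm and Nefh, was not set apart in Prph, and its ratio of Nefl to Prph was 1.13 against 1.71 to 2.46 in the other samples.

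Alpha-internexin, a neurofilament subunit best known from central neurons, was low in these ganglia. Ina (ENSMUSG00000034336) stood at 19.99, 18.0, 18.3 and 18.5 TPM in ZT20 replicates 1 to 4 and at 12.4, 17.1 and 14.9 TPM in ZT8 replicates 1 to 3. All ZT20 samples were above all ZT8 samples, by a factor of only 1.05 at the nearest point. Its log2 difference was 0.33 with a 95% interval of −0.038 to 0.69 (limma adjusted p = 0.183) and did not pass, except with array weights (0.42, limma adjusted p = 0.0474). It was 0.088 under median-ratio scaling. Ina shares 456 bases of exon with Nt5c2 on the other strand.

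Vim (ENSMUSG00000026728), expressed by glia, fibroblasts and endothelial cells and by injured neurons, stood at 132, 123, 124 and 129 TPM in ZT20 replicates 1 to 4 and at 136, 88.5 and 115 TPM in ZT8 replicates 1 to 3. ZT8 held both the highest and the lowest sample. The log2 difference was 0.19 with a 95% interval of −0.16 to 0.53 (limma adjusted p = 0.403), and it was −0.061 under median-ratio scaling. As each library was left out it ran from 0.023 (without ZT8 replicate 2) to 0.33 (without ZT8 replicate 1). Summed fibroblast markers (9 genes) were at 94.3 to 132 TPM at ZT20 and 108 to 247 TPM at ZT8, with the highest sum in ZT8 replicate 2, where Vim was lowest. Endothelial markers (8 genes) summed to 19.7 to 28.3 TPM and 13.1 to 22.8 TPM, with the lowest sum in that same library. The part of either cell type in the Vim values was not tested.

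Nes (ENSMUSG00000004891) was near the detection filter. It stood at 1.39, 1.56, 1.21 and 1.19 TPM in ZT20 replicates 1 to 4 and at 0.686, 1.45 and 1.18 TPM in ZT8 replicates 1 to 3, with overlapping ranges. The log2 difference was 0.17 with a 95% interval of −0.41 to 0.75 (limma adjusted p = 0.671), and it was −0.20 under quantile normalization and −0.49 after the length and GC correction. With single libraries left out it ran from 0.014 (without ZT8 replicate 1) to 0.28 (without ZT8 replicate 2).

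Gfap (ENSMUSG00000020932), the filament that satellite glia produce when reactive, was the least stable member. It stood at 1.25, 2.38, 2.26 and 3.02 TPM in ZT20 replicates 1 to 4 and at 10.4, 0.310 and 5.59 TPM in ZT8 replicates 1 to 3. ZT8 held the 2 highest samples and the lowest one. The log2 difference was −0.55 with a 95% interval of −2.03 to 0.94 (limma adjusted p = 0.578). Without ZT8 replicate 2 it was −1.45 and passed (limma adjusted p = 0.0201), and without ZT8 replicate 1 it was 0.11 (limma adjusted p = 0.915), so single libraries decide this value. In ZT8 replicate 2 the satellite glia markers other than Apoe summed to 1733 TPM, the highest of all samples, but the members differed: Fabp7 was at its highest there (709 TPM), while Cdh19 (15.3 TPM) and Ptprz1 (8.74 TPM) were at their lowest of the 7 samples. Of the 10 markers 2 fell at ZT20 and 0 rose, against 3.61% and 12.8% of all tested genes. Those that fell were Apoe, a lipid carrier that made up most of the sum, with a ZT20 mean of 6701 ± 621 TPM (SD, n = 4) against 12404 ± 1565 TPM (SD, n = 3) at ZT8, and Fabp7, a fatty acid binding protein of these glia, with 493 ± 19.3 TPM (SD, n = 4) against 649 ± 52.3 TPM (SD, n = 3). Counts of lower markers were 3 after the length and GC correction, with a median of −0.41, and 4 under median-ratio scaling, with a median of −0.30. Leaving out each library gave 1 to 3 lower markers, with 1 without any single ZT20 library or ZT8 replicate 1 and 3 without ZT8 replicate 3, and the limma fit without both ZT20 replicates 3 and 4 called 0. Of the 8 markers that did not pass, 5 had positive log2 differences: Cdh19 (0.38), Gja1 (0.31), Hmgcs1 (0.24, with ranges apart), Kcnj10 (0.21) and Ptprz1 (0.18). Kcnj10, the potassium channel that defines these glia, was at 3.45 to 7.44 TPM at ZT20 and 3.98 to 5.25 TPM at ZT8 and did not pass. The part of glial RNA in the Gfap values was not tested.

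**Figure D4:**
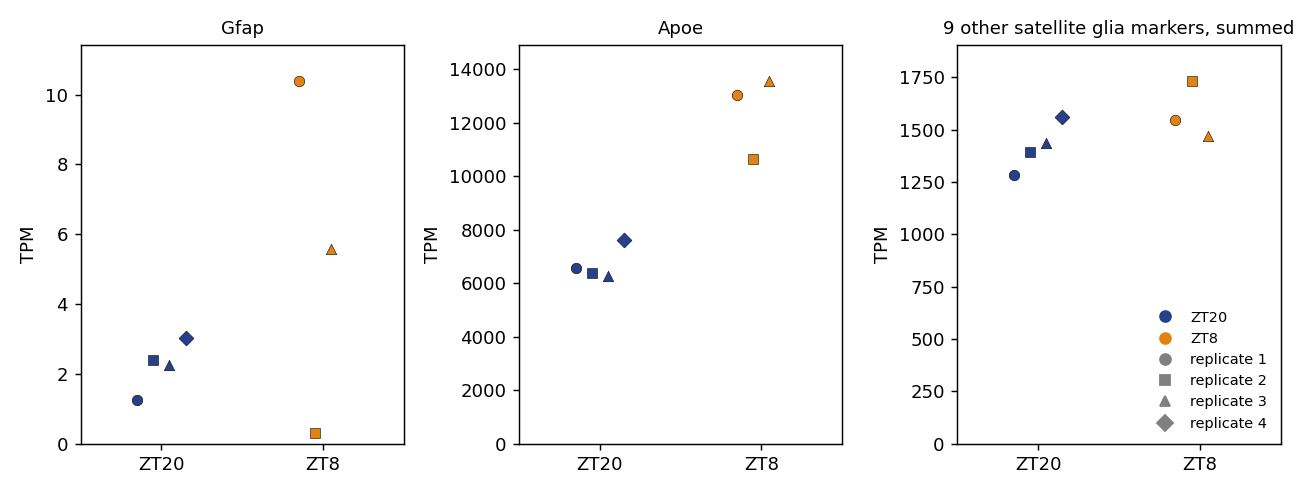
Gfap (left), Apoe (middle) and the sum of the 9 other satellite glia markers (right), in TPM on linear axes from 0, in each ZT20 and ZT8 sample, with symbols for the replicate number. Apoe is apart between the groups (at most 7615 TPM at ZT20, at least 10623 TPM at ZT8), the other 9 markers overlap, and Gfap in ZT8 replicate 2 is below every ZT20 sample.

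**Figure D5:**
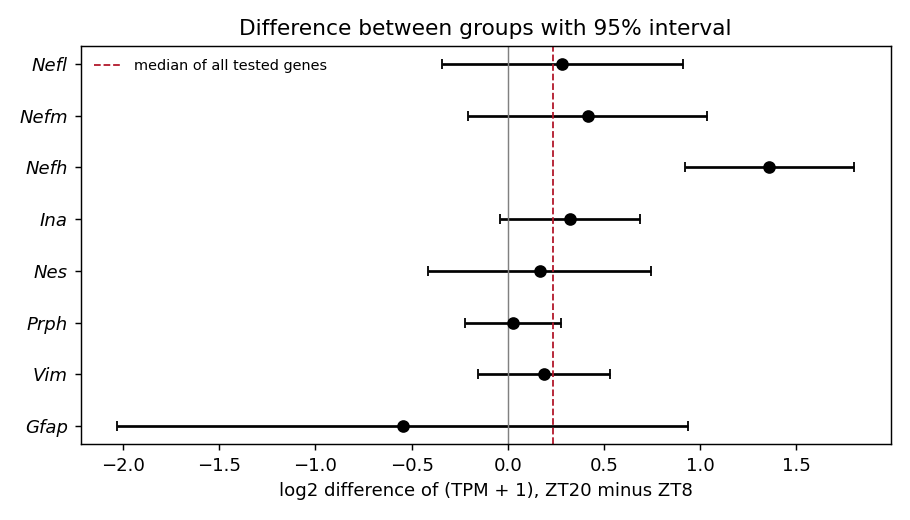
Log2 difference of each member (ZT20 minus ZT8, points) with its 95% interval from the limma fit (bars), with the median of all tested genes as a dashed line at 0.23. The interval of Nefh, from 0.92 to 1.80, is the only one that excludes 0.

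Most other intermediate filament genes that were listed averaged under 1 TPM in these ganglia. Of these 42 genes, 36 were above 0 TPM in at least 1 sample and 14 were tested, of which 2 rose at ZT20, 0 fell and 12 did not pass. With 12.8% of all tested genes higher, 2 of 14 is near the background. Their median log2 difference was 0.24, against 0.23 for all tested genes. Synm, which encodes synemin, a large filament protein that co-assembles with vimentin, stood at 86.4, 79.0, 107 and 106 TPM in ZT20 replicates 1 to 4 and at 49.1, 35.2 and 53.6 TPM in ZT8 replicates 1 to 3. Its log2 difference of 1.03 (limma adjusted p = 0.0105) became 0.32 after the length and GC correction (limma adjusted p = 0.176). Lmnb1, a B-type lamin of the nuclear envelope, averaged 2.74 ± 0.656 TPM (SD, n = 4) at ZT20 against 0.538 ± 0.360 TPM (SD, n = 3), and its difference of 1.29 (limma adjusted p = 0.0204) was 1.09 after the correction (limma adjusted p = 0.0326). It was at 0.563, 0.167 and 0.886 TPM in ZT8 replicates 1 to 3, so it met the filter only through its ZT20 level. Lmna, the A-type lamin and the most abundant of the list, was at 152 ± 15.7 TPM (SD, n = 4) against 159 ± 44.4 TPM (SD, n = 3) and did not pass. Leaving out each library gave 1 to 2 higher genes, and without both ZT20 replicates 3 and 4 the count was 0.

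Genes whose products link, move, modify or degrade neurofilaments numbered 35, with 32 tested. Of these 13 rose at ZT20, 3 fell and 16 did not pass, beside shares of 12.8% higher and 3.61% lower over all tested genes. Their median log2 difference was 0.57, against 0.23 for all tested genes. The genes that rose had long transcripts, with a median of 7428 bases against 3843 for the other genes of the list. Only 5 of the 16 called genes passed again in the same direction after the length and GC correction, so most of these calls depend on that choice. Leaving out each library gave 7 to 13 higher and 0 to 2 lower genes, with 7 without ZT20 replicate 3 and 8 without ZT20 replicate 4. Without both of those libraries the limma fit called 0.

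Among the transport motors, Kif5a, the neuronal kinesin that carries neurofilaments outward, stood at 238, 171, 285 and 285 TPM in ZT20 replicates 1 to 4 and at 140, 84.4 and 109 TPM in ZT8 replicates 1 to 3. The groups did not overlap, and the log2 difference was 1.13 (limma adjusted p = 0.0152). After the length and GC correction it was 0.48 and did not pass (limma adjusted p = 0.0744). Dync1h1, the dynein heavy chain that carries cargo back to the cell body, differed by 1.33 (limma adjusted p = 0.00193), and by 0.46 after the correction (limma adjusted p = 0.0558). Myo5a, a myosin that binds the light chain, differed by 1.00 and by 0.24 after the correction, which did not pass.

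The cytoskeletal linkers Plec and Macf1, giant proteins that tie intermediate filaments or microtubules to actin, differed by 1.12 and 1.02 (limma adjusted p = 0.0103 and 0.00664). After the length and GC correction these differences were 0.16 and 0.20, and neither passed.

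Among the genes of filament turnover, Trim2, a ubiquitin ligase that targets the light chain, stood at 73.3, 61.4, 59.8 and 72.1 TPM in ZT20 replicates 1 to 4 and at 21.5, 24.3 and 14.2 TPM in ZT8 replicates 1 to 3. Its lowest ZT20 value was far above its highest ZT8 value, with a log2 difference of 1.71 (limma adjusted p = 0.00294), and the corrected difference of 1.09 also passed (limma adjusted p = 0.0159).

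Sod1, the superoxide dismutase whose mutant forms disturb neurofilaments in motor neuron disease, stood at 404, 446, 304 and 304 TPM in ZT20 replicates 1 to 4 and at 117, 116 and 101 TPM in ZT8 replicates 1 to 3. The groups were well apart, with a log2 difference of 1.69 (limma adjusted p = 0.00196) and a corrected one of 1.35 (limma adjusted p = 0.0110). Of the genes that fell, the chaperones Cryab and Dnajb6, named after their values were seen, had log2 differences of −0.45 and −0.48 (limma adjusted p = 0.0456 and 0.0355). Mapk3, a kinase that phosphorylates lysine-serine-proline repeats, also named after its values were seen, rose by 0.56 on the log2 scale (limma adjusted p = 0.0126). Mapk3 and Dnajb6 passed again after the length and GC correction, and Cryab did not. Under median-ratio scaling Mapk3 was at 0.31 and did not pass (limma adjusted p = 0.0824), while Cryab and Dnajb6 did. Without a filter, without the intensity trend or with the replicate block, 0 genes of the list were lower, so Cryab and Dnajb6 did not pass there.

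The genes most like each abundant member were sought by the root-mean-square distance between log2 profiles centred on their own means over the 7 samples, among 8105 genes averaging 10 TPM or more. Nearest to Nefl were Fastk, Tmem179 and Diras1, at distances of 0.067 to 0.070, against a median of 0.44 over all candidates. Nearest to Nefh were Fam155a, Dmwd and Ralgapa1, at 0.12 to 0.15, against a median of 0.68. Their log2 differences were 1.15, 1.36 and 1.48. Nearest to Prph were Polr1d, Sae1 and Nap1l4, at 0.030 to 0.037. Nearest to Vim were Mrpl10, Tmeff2 and Xpnpep1, at 0.041 to 0.047. With 7 samples many genes lie close to any profile, and these distances are a description without a test.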

How the data were processed

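The authors deposited a table of TPM values, 1 column for each of the 7 samples, and the number of value columns not used was 0. The submitters' processing notes name FastQC 0.11.9, Trim Galore 0.6.6, Salmon 1.6.0, DESeq2 1.34.0 and the build GRCm39, without their roles. The annotation release and any scaling between samples are not given in the sources used here, and sequencing depth is unknown, so no counting error can be attached to a value. TPM has a fixed sum, so abundant genes that rise lower all others.

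Values were analysed as log2(TPM + 1), on which a fold change of a low gene is understated. Genes averaging 1 TPM or more were fitted with limma 3.58.1 in R 4.3.3 (eBayes with an intensity trend, two-sided, no covariates, Benjamini-Hochberg over 14800 genes, threshold 0.05). For single ratios, an exact permutation test (two-sided) took the absolute difference of group means. The procedure was checked on simulated data. Transcript length and GC content came from GENCODE M21 (build GRCm38, known for 99.6% of tested genes), so no coordinates are given, and the correction was a loess fit per sample with span 0.3. Other software was the R package data.table (version 1.17.8) and, in Python 3.11.15, pandas 2.3.3 and matplotlib 3.10.9.

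The members and lists were chosen with earlier results of these data known. Named genes are the 8 members, at most 8 called genes of largest absolute difference in each of the lists of other filament genes and of filament partners, markers needed to check cell types, and the 3 genes nearest to Nefl, Nefh, Prph and Vim. Lmna, Mapk3, Cryab and Dnajb6 were named outside this rule. Some genes that this rule takes are counted but not reported here by name. A list of 14 conditioning and growth genes had 13 tested, 1 higher and 0 lower, beside 12.8% and 3.61% of all tested genes, and 0 to 2 higher as each library was left out. Of 10 Schwann cell markers 9 were tested, 0 higher and 1 lower (0 to 2 as each library was left out). Of 10 macrophage markers 2 were higher and 1 lower, with 0 higher without ZT20 replicate 1, 3 or 4 or ZT8 replicate 3, and of the tested fibroblast and endothelial markers 0 passed. The 2 higher macrophage markers, Itgam and Mrc1, averaged 0.798 and 0.478 TPM at ZT8, so they met the filter only through their ZT20 level. Alternatives were other pseudocounts (0.1) and filters (none, or a mean of 5 TPM), quantile normalization, median-ratio scaling, a table without mitochondrially encoded genes, the length and GC correction, the replicate block alone and with that correction, the marker score, no intensity trend, array weights, a threshold of 0.10, and leaving out each library.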

Additional observations from a re-analysis of the deposited data

Results flagged for a closer look

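Of 13 results read in the 4 ZT20 samples (8 levels and 5 ratios to Nefl), 3 had 1 sample far from the others, and chance alone flags about 1 in 20. All 3 were ratios to Nefl in ZT20 replicate 2, so they share the low Nefl value of that library, 4309 TPM. On the log2 scale the ratio of Nefh to Nefl was −2.68 there and −3.37 to −3.26 in the other ZT20 samples, a gap of 0.844 of the group's range. The ratio of Ina to Nefl was −7.82 there, a gap of 0.880, and the ratio of Vim to Nefl was −5.12, a gap of 0.836. Without that library the difference in the Nefh to Nefl ratio between the groups was 0.92.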

How the results depend on the processing

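The alternative without ZT20 replicates 3 and 4 was chosen after the data were seen, and causes of the changes below were not tested. The number of genes that differed, 2433 (1899 higher, 534 lower), was 1178 without a filter, 1348 after the length and GC correction, 3899 with array weights, 4079 at a threshold of 0.10, 0 with the marker score (2125 at an unadjusted p-value under 0.05), 0 without ZT20 replicates 3 and 4 (2425 unadjusted), and 624 to 3055 when each library was left out (624 without ZT20 replicate 3, 819 without ZT20 replicate 4, 1125 without ZT20 replicate 1). The split into higher and lower was 1095 and 1265 under median-ratio scaling, 1023 and 814 under quantile normalization, and 542 and 806 after the length and GC correction. Nefh did not pass with the marker score (0.81) or without ZT20 replicates 3 and 4 (1.39), and passed in all 7 fits that left out 1 library (1.17 to 1.62). With array weights Ina (0.42, limma adjusted p = 0.0474) and Gfap (−1.29, limma adjusted p = 0.0396) passed, and Gfap ran from −1.45 to 0.11 over the libraries left out. The sign turned for Prph under median-ratio scaling (−0.22), the length and GC correction (−0.070), the marker score (−0.051), without ZT20 replicates 3 and 4 (−0.063), and over the libraries left out (−0.027 to 0.078). It turned for Vim under median-ratio scaling (−0.061), for Nes under quantile normalization (−0.20), the length and GC correction (−0.49) and the marker score (−0.0079), and for Nefl over the libraries left out (−0.069 to 0.48). Of the ratios to Nefl, Nefm turned after the length and GC correction (−0.040), Ina under quantile normalization (−0.24) and the correction (−0.023), and Vim after the correction (0.0016). Over the libraries left out, the ratios ran from 0.81 to 1.24 for Nefh, −0.44 to 0.042 for Prph, −0.27 to 0.50 for Ina and −0.23 to 0.092 for Vim. With 3 samples a side an exact test cannot go below p = 0.1, and with 4 against 2 below 0.0667, so the Nefh ratio could not pass there, nor without ZT20 replicates 3 and 4 (1.19, exact p = 0.1). A mean of at least 5 TPM removed Nes and Gfap, so they have no value under it.

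The replicate numbers are shared by the groups, but the deviations of same-numbered samples correlated at −0.014, 0.15 and 0.083, not each sample matched its own number best, and nothing in the labels ties them. With the replicate block 1174 genes passed, and Nefh passed at 1.36 (limma adjusted p = 0.0241). With the block and the length and GC correction 623 genes passed (262 higher, 361 lower), Nefh did not (0.91, limma adjusted p = 0.0618), and the sign turned for Nefm (−0.035), Nes (−0.43) and Prph (−0.076). The block turned no ratio.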
